A study of Homo sapiens with 15 samples.

Results

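Integrin subunits and laminin chains were described across 5 ovarian cancer cell lines. The members were the genes whose symbol is ITGA or ITGB, or LAMA, LAMB or LAMC, followed by the number or letter of the family, and 33 of the 16604 genes in the table met this rule. They were 13 integrin alpha subunits, 8 integrin beta subunits and 12 laminin chains. Of the 37 family symbols in the table of gene names, ITGA8, ITGA11, ITGAL and ITGAM were not analysed here.

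RNA from cultured cells was sequenced in 15 samples, with 3 biological replicates for every line. OVCAR4 is a widely used cell line from a serous ovarian carcinoma of high grade, and its parental form (Ovcar4Parental) is labelled sensitive to carboplatin and cisplatin. Ov4Cis (cisplatin resistant) and Ov4Carbo (carboplatin resistant) were selected from it in rising drug concentrations until the IC50 had increased 2- to 10-fold. Ov4Carbo4 and Ov4Carbo7, both labelled carboplatin resistant, were each grown from a single cell of Ov4Carbo, so each is 1 clone. Every line was kept in DMEM with serum, and the labels do not say whether drug was present at harvest. Each derived line comes from 1 selection or 1 cell, so the replicates measure the spread within a line and not between independent selections.

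Integrins are cell-surface receptors made of an alpha and a beta subunit, and the pair decides which matrix protein the cell can hold. Laminins are the main adhesive proteins of basement membranes, each assembled from an alpha, a beta and a gamma chain. In epithelia, a laminin that holds the LAMA3 and LAMB3 chains is bound by the integrin of ITGA6 and ITGB4 in hemidesmosomes, the anchors that tie keratin filaments to the basement membrane. Integrins of ITGA5 and ITGB1 bind fibronectin, and those of ITGAV with ITGB6 or ITGB8 are known to release TGF-beta from its latent complex.

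Levels are given as log2 RPKM (reads scaled by gene length and library size), and a gene was called at a limma adjusted p under 0.05 with a log2 fold change of at least 1 in either direction. Of 10 markers of serous ovarian carcinoma, 9 reached log2 RPKM 1 in at least 1 line, WT1 being the exception. PAX8 was between 5.85 and 6.74 in every line. In Ov4Cis, EPCAM was at 1.17, KRT7 at -0.57 and MUC16 at -1.73, against 5.98, 8.28 and 4.60 in the parental line. Each of them was also lower than in the parental line in the other derived lines. In Ov4Carbo, Ov4Carbo4 and Ov4Carbo7, EPCAM was at 5.32, 5.23 and 3.01, KRT7 at 6.08, 5.64 and 5.48, and MUC16 at 3.89, 4.26 and -0.21. Other markers on the list, some of them above log2 RPKM 1, were higher in Ov4Cis than in the parental line. The part of these shifts in the member results was not tested. Of 8 fibroblast and 6 endothelial markers, 4 and 3 were analysed and 2 (COL1A1 and COL1A2) and 1 (CDH5) reached that level. CDH5 was at 2.46, 5.13, 2.15, 4.42 and 3.08 in Ovcar4Parental, Ov4Cis, Ov4Carbo, Ov4Carbo4 and Ov4Carbo7, while VWF and KDR were below 0 in every line mean. The summed endothelial RPKM was 6.37 to 7.40 in the parental samples, 32.3 to 40.9 in Ov4Cis, 4.27 to 6.06 in Ov4Carbo, 20.7 to 25.2 in Ov4Carbo4 and 8.85 to 10.26 in Ov4Carbo7, and its part in the member results was not tested. Sample titles carry numbers in 2 series, the first holding replicate 1 of Ov4Carbo and every Ov4Carbo4 and Ov4Carbo7 sample, and no label names it a batch. A title-series term, used below as an alternative, is set only by replicate 1 of Ov4Carbo against its replicates 2 and 3. With that term, a clone's difference from Ov4Carbo or the parental line rests on that replicate 1. Such values show dependence on 1 sample and are not batch-corrected estimates. Replicate 1 of Ov4Carbo differed from its replicates 2 and 3 by a root mean square of 1.08 and 0.92 log2 units over the 33 members, against 0.57 between replicates 2 and 3.

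Most members varied between the lines. A limma F-test across the 5 lines was passed by 32 of the 33 members, ITGAE being the exception, beside 76.9% of all genes. In at least 1 of 8 pairwise contrasts 27 members were called, beside 38.6% of all genes. Against the parental line, 15 members were called in Ov4Cis (15.9% of all genes), 15 in Ov4Carbo (12.7%), 16 in Ov4Carbo4 (15.1%) and 14 in Ov4Carbo7 (17.0%). Of these, 9, 5, 7 and 8 were higher, beside 8.46%, 5.76%, 7.43% and 9.26% of all genes, and 6, 10, 9 and 6 lower, beside 7.41%, 6.93%, 7.7% and 7.75%, in the same order of lines. The 3 values of a derived line all lay above or all below the 3 parental values for 23, 19, 25 and 27 members, beside 53.4%, 38.4%, 58.1% and 56.5% of all genes. These 4 contrasts share their parental samples. Among the 21 members with a mean of at least log2 RPKM 1, 9, 9, 9 and 6 were called, beside 8.21%, 6.06%, 8.07% and 9.42% of the genes above that level. On log2(RPKM + 1), 10, 10, 11 and 8 were called, beside 7.58%, 4.76%, 6.34% and 7.79% of all genes. Without replicate 1 of Ov4Carbo, the 4 counts were 18, 17, 16 and 14, beside 16.5%, 15.2%, 15.6% and 17.6% of all genes.

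**Figure D1:**
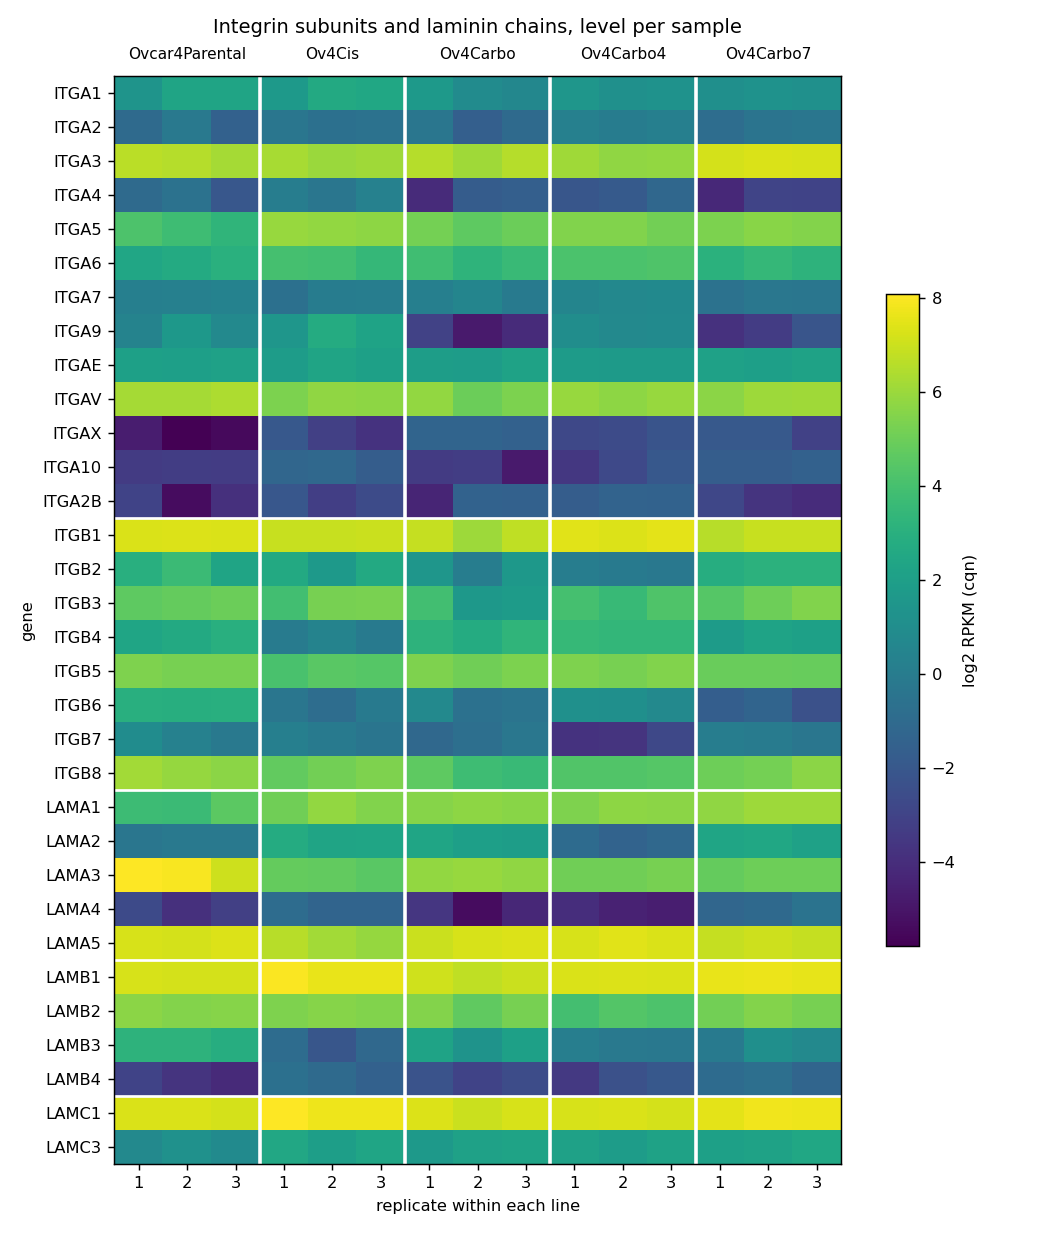
Level of the members (rows) in each of the 15 samples (columns, 3 replicates per line), coloured by log2 RPKM. LAMA5, LAMB1, LAMC1 and ITGB1 were among the high rows in every sample, and LAMA3, LAMB3 and ITGB6 were highest in the 3 parental samples.

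Of the 12 laminin chains 9, 7, 7 and 8 were called in Ov4Cis, Ov4Carbo, Ov4Carbo4 and Ov4Carbo7, and of the 21 integrin subunits 6, 8, 9 and 6. Over all genes the shares were 15.9%, 12.7%, 15.1% and 17.0%. Both family counts include members below log2 RPKM 1 in every line mean. The difference between the families was not tested. The median size of the log2 fold change over the 33 members was 1.06, 1.08, 1.00 and 0.68, against 0.33, 0.33, 0.36 and 0.38 over all genes. The signed member medians were 0.01, -0.28, -0.05 and 0.07, against 0.04, 0.03, 0.07 and 0.02 over all genes. Among the members called lower in each derived line were LAMA3, LAMB3 and ITGB6 (1.65% of all genes met this rule), and ITGA5, ITGAX, LAMA1 and LAMC3 were called higher in each (1.73%).

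**Figure D2:**
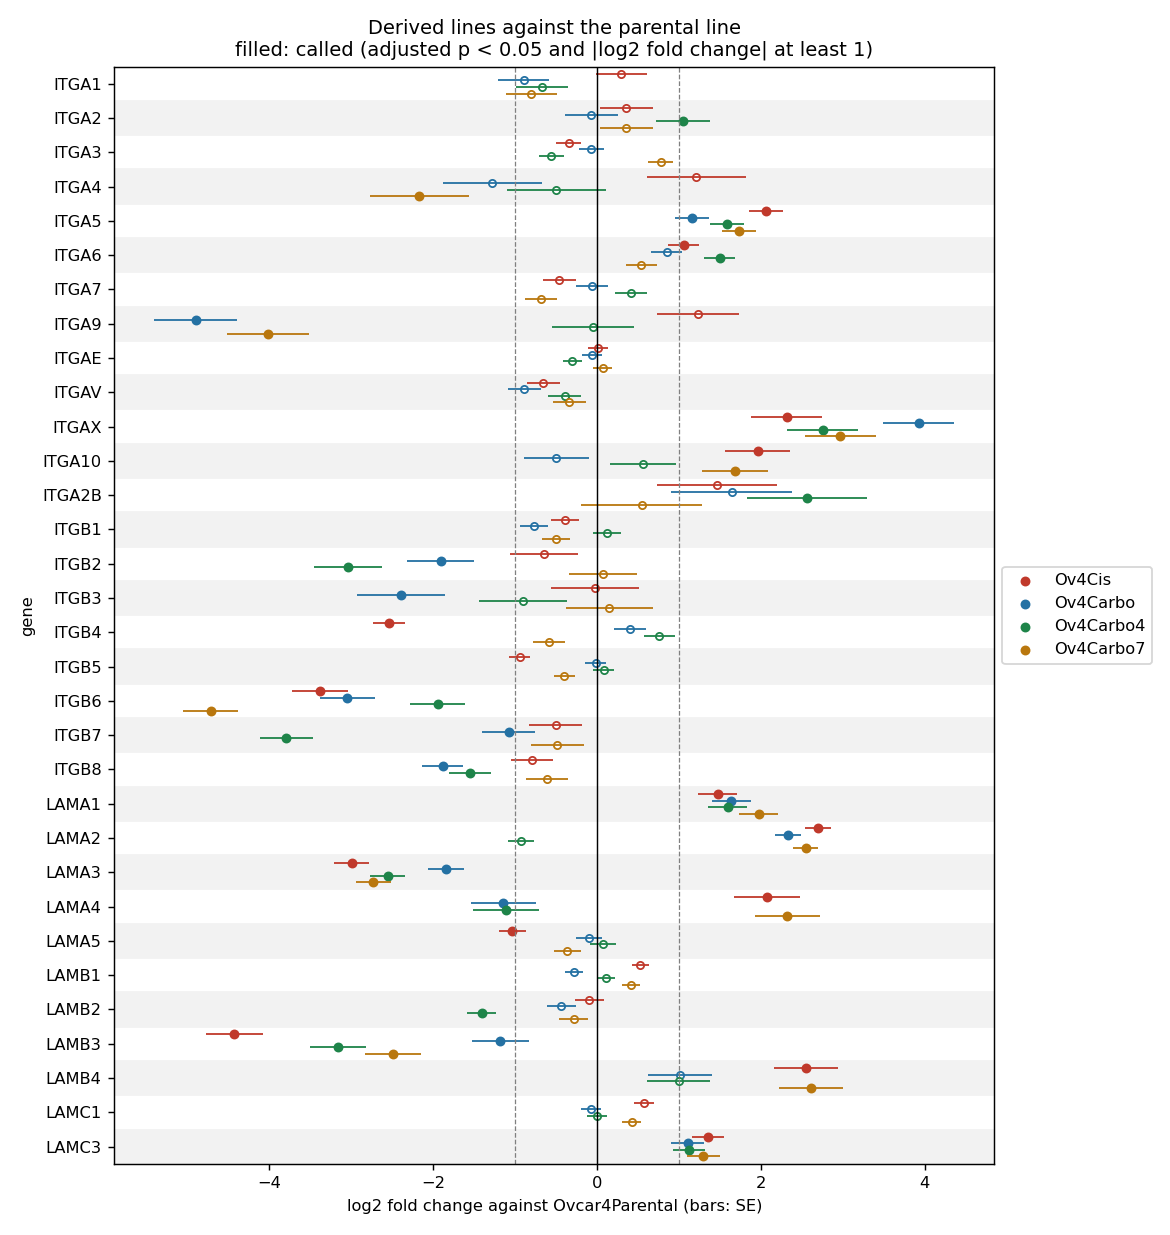
Log2 fold change of the members against the parental line with its SE, one colour per derived line, filled where called and open where not; dashed lines mark 1 and -1. ITGB6, LAMA3 and LAMB3 lie to the left of the dashed line in every derived line, and LAMA2 lies to the right in every derived line but Ov4Carbo4.

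LAMA3 and LAMB3, chains of the hemidesmosomal laminin, fell in all 4 derived lines. LAMA3 (chromosome 18), whose product is the alpha chain, stood at 8.08, 7.94 and 7.01 log2 RPKM in the parental samples, at 4.78, 4.72 and 4.53 in Ov4Cis, at 5.81, 5.93 and 5.75 in Ov4Carbo, at 5.07, 5.05 and 5.25 in Ov4Carbo4 and at 4.82, 5.01 and 5.0 in Ov4Carbo7. Every derived sample was below every parental sample, although parental replicate 3 was nearly 1 log2 unit below the other parental samples. The log2 changes were -3.0, -1.84, -2.55 and -2.73 in Ov4Cis, Ov4Carbo, Ov4Carbo4 and Ov4Carbo7 (SE 0.21 each), with limma adjusted p of 3.77e-07, 5.07e-05, 2.28e-06 and 1.23e-06. In bulk samples, fewer cells with the transcript and less transcript per cell cannot be told apart.

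LAMB3 (chromosome 1), the beta chain of the same laminin, was at 3.16, 3.19 and 2.87 log2 RPKM in the parental samples, at -0.88, -2.07 and -1.11 in Ov4Cis, at 2.25, 1.35 and 2.08 in Ov4Carbo, at 0.14, -0.17 and -0.23 in Ov4Carbo4 and at -0.09, 1.09 and 0.74 in Ov4Carbo7. No derived sample reached the lowest parental value, and Ov4Carbo came closest. LAMB3 fell by 4.43 in Ov4Cis (SE 0.34, limma adjusted p = 8.08e-07), by 3.16 in Ov4Carbo4 (1.91e-05), by 2.49 in Ov4Carbo7 (1.02e-04) and by 1.18 in Ov4Carbo (0.0199). On log2(RPKM + 1), which damps low values, the changes in the same order of lines were -2.74, -2.28, -1.90 and -0.99. The Ov4Carbo call was lost there, without parental replicate 2 (-1.13, adjusted p = 0.0621) and without Ov4Carbo replicate 2 (-0.91, 0.0817).

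**Figure D3:**
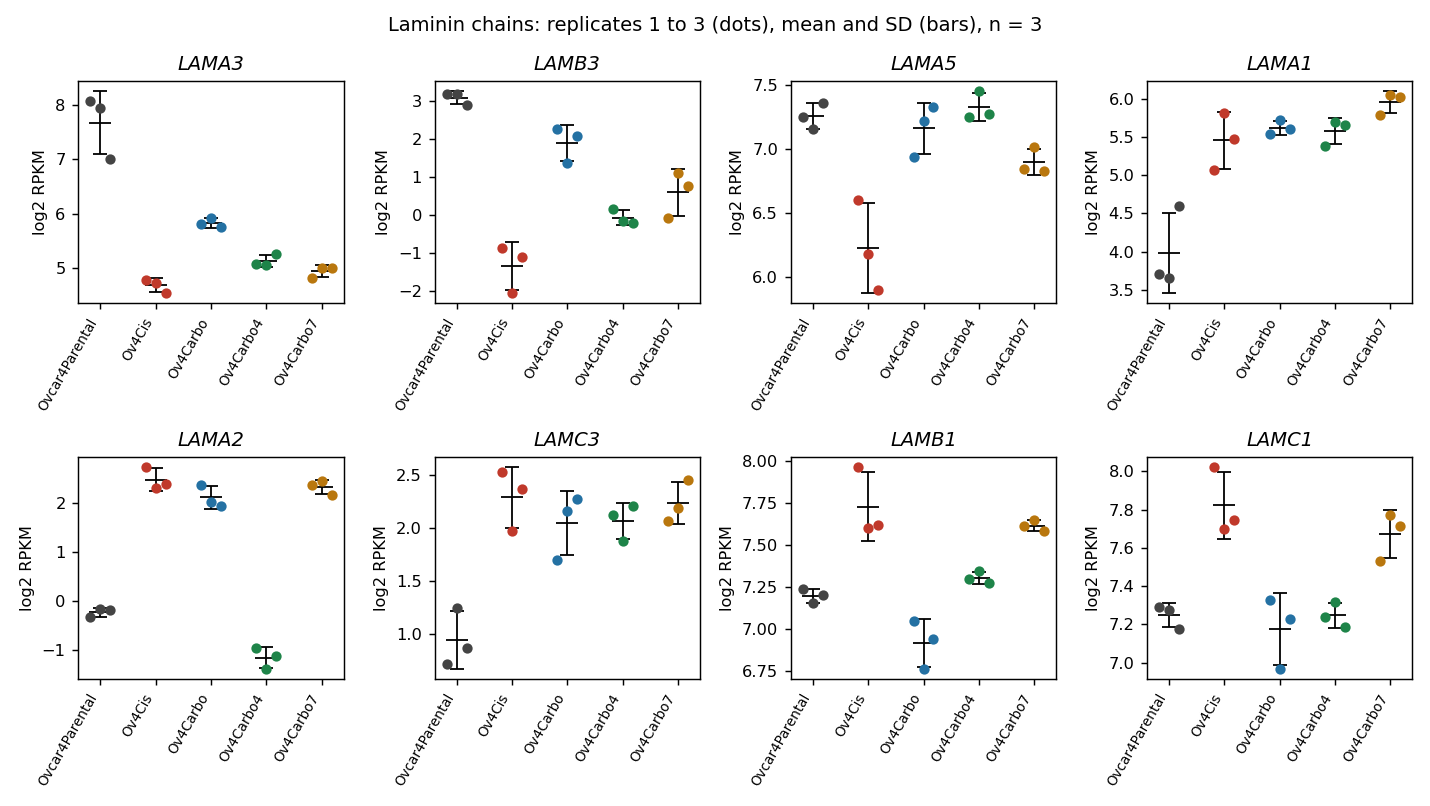
Log2 RPKM of 8 laminin chains by line, with 1 dot per replicate and the mean and SD as bars (n = 3). LAMA3 and LAMB3 are lower in every derived sample than in every parental one, LAMA1 and LAMC3 are higher, LAMA2 is low in the parental line and Ov4Carbo4, LAMA5 is lowest in Ov4Cis, and LAMB1 and LAMC1 stay between 6.76 and 8.02.

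Because LAMA3, LAMB3 and ITGB6 moved down in every derived line, the upstream 250 bases of their RefSeq starts (GRCh38.p14) are shown, 5′ to 3′ on the gene's strand and ending at the base before the start. Both strands were searched for TGANTCA, the site that AP-1 factors are known to bind, and for CAGGTG, whose opposite strand reads CACCTG, an E-box that SNAI and ZEB repressors are known to bind. Capitals mark the matches. The windows shown were chosen after the search, and a further LAMB3 window with neither motif is not shown. RefSeq entries were matched for 23 of the 33 members, in 30 windows; LAMA1 and LAMC3 had none.
LAMA3 chr18:23872770-23873019 (+): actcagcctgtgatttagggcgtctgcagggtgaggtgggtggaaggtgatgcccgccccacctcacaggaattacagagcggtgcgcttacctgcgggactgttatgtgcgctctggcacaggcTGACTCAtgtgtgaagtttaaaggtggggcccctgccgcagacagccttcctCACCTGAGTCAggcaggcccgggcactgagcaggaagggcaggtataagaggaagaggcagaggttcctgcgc
LAMB3 chr1:209652426-209652675 (-): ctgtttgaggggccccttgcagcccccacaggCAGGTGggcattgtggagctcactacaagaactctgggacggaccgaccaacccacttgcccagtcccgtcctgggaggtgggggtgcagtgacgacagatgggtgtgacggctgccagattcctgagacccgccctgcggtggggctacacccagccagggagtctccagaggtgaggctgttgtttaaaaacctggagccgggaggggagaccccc
LAMB3 chr1:209651375-209651624 (-): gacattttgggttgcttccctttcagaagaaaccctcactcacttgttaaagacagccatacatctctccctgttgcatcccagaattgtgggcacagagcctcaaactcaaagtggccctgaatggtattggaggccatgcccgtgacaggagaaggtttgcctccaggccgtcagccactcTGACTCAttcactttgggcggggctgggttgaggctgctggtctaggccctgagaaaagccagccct
ITGB6 chr2:160200273-160200522 (-): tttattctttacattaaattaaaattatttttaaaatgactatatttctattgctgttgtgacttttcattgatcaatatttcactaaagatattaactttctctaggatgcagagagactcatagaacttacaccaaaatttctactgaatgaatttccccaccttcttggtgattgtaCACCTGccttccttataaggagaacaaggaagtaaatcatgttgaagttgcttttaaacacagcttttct

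TGANTCA occurred in 2 of the 30 member windows and in 6.57% of 35116 windows of the same length. Its matches began 125 and 69 bases before the LAMA3 start and 67 bases before the downstream LAMB3 start. CAGGTG occurred in 7 of the 30 windows and in 17.5% of all windows. In LAMA3 it began 73 bases before the start and overlapped the second TGANTCA, in LAMB3 it began 218 bases before the upstream start, and in ITGB6 70 bases before the start. The other matches were in ITGA6, ITGB5, LAMB4 and LAMA5. The LAMA3 window belongs to an internal start, 183577 bases downstream of the gene's first start in GENCODE v29. The expression table does not separate starts, so which start these reads came from was not tested, and a match describes letters, not binding.

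Other laminin chains rose. LAMA1 (chromosome 18), an alpha chain known best from embryonic basement membranes, averaged 3.98 ± 0.53 log2 RPKM in the parental line (SD, n = 3) and between 5.46 and 5.96 in the derived lines, with no overlap in any contrast with the parental line. It rose by 1.47, 1.64, 1.59 and 1.98 (SE 0.24 each; limma adjusted p = 3.51e-04, 2.60e-04, 2.05e-04 and 3.19e-05 for Ov4Cis, Ov4Carbo, Ov4Carbo4 and Ov4Carbo7). A gene on the opposite strand, AP002409.1, overlaps LAMA1 exons, and whether the counting used strand is not given in the sources used here. LAMC3 (chromosome 9), a less common gamma chain, rose from 0.94 ± 0.27 to 2.29, 2.05, 2.07 and 2.24, by 1.35, 1.11, 1.13 and 1.30 (SE 0.20 each; limma adjusted p between 1.65e-04 and 0.00115). On log2(RPKM + 1) the LAMC3 difference kept its direction but passed the fold limit in Ov4Cis (1.01) and not in Ov4Carbo (0.81), Ov4Carbo4 (0.83) or Ov4Carbo7 (0.97). Without parental replicate 1 or without Ov4Carbo replicate 3, its Ov4Carbo difference was 0.99.

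LAMA2 (chromosome 6), the alpha chain of muscle and nerve basement membranes, separated the lines into high and low. It was at -0.33, -0.16 and -0.18 log2 RPKM in the parental samples, at 2.73, 2.31 and 2.38 in Ov4Cis, at 2.37, 2.02 and 1.94 in Ov4Carbo, at -0.95, -1.38 and -1.12 in Ov4Carbo4 and at 2.36, 2.45 and 2.16 in Ov4Carbo7. The 9 samples of Ov4Cis, Ov4Carbo and Ov4Carbo7 were all above 1.9, and the 6 others were all below 0. LAMA2 rose against the parental line by 2.70, 2.33 and 2.55 in those 3 lines (SE 0.15; limma adjusted p = 6.42e-08, 6.64e-07 and 1.93e-07). The Ov4Carbo4 difference was -0.93 (adjusted p = 5.01e-04), short of the fold limit. Between the clones, LAMA2 was 11.1-fold higher in Ov4Carbo7 than in Ov4Carbo4 (log2 3.47, SE 0.15, adjusted p = 1.54e-08), a contrast that lies within 1 title series.

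The line means of LAMB1, LAMC1, LAMA5 and LAMB2 spanned less than those of LAMA1, LAMA2, LAMA3 and LAMB3. LAMB1 and LAMC1, the beta and gamma chains of most laminins, were not called in any contrast of all 15 samples, with line means of 6.92 to 7.73 and 7.18 to 7.82. They kept close to each other, the mean LAMC1 minus LAMB1 difference lying between -0.06 and 0.26 log2 units in the 5 lines. LAMA5, the alpha chain of mature epithelial and vascular basement membranes, fell by 1.03 in Ov4Cis (7.26 ± 0.10 to 6.23 ± 0.35, SE 0.16, limma adjusted p = 2.70e-04). It was -0.87 without Ov4Cis replicate 3 and -0.98 without parental replicate 3, below the fold limit. LAMB2, a beta chain of kidney and synaptic basement membranes, fell by 1.41 in Ov4Carbo4 (5.58 ± 0.09 to 4.17 ± 0.22, SE 0.18, adjusted p = 5.89e-05). It was 1.12 higher in Ov4Carbo7 than in Ov4Carbo4 (adjusted p = 2.05e-04).

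RPKM is scaled by gene length, so chains were also compared as shares of the summed RPKM of their class. LAMA3 made up 54.5 ± 12.2% of alpha-chain RPKM in the parental line, with 61.9, 61.0 and 40.4% in its replicates. The LAMA3 share was 16.8%, 22.4%, 14.3% and 14.1% in Ov4Cis, Ov4Carbo, Ov4Carbo4 and Ov4Carbo7. LAMA5 then held the largest share, 49.5%, 56.4%, 65.9% and 54.7%, against 40.7% in the parental line. LAMA1 went from 4.56% to 29.7%, 19.4%, 19.6% and 28.6%. The shares are shown as descriptions with no test, and a share is lowered when another chain rises. Total alpha-chain RPKM was 385 ± 60.3 in the parental line and 153 ± 17.4, 255 ± 20.9, 244 ± 16.2 and 218 ± 14.7 in the derived lines.

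**Figure D4:**
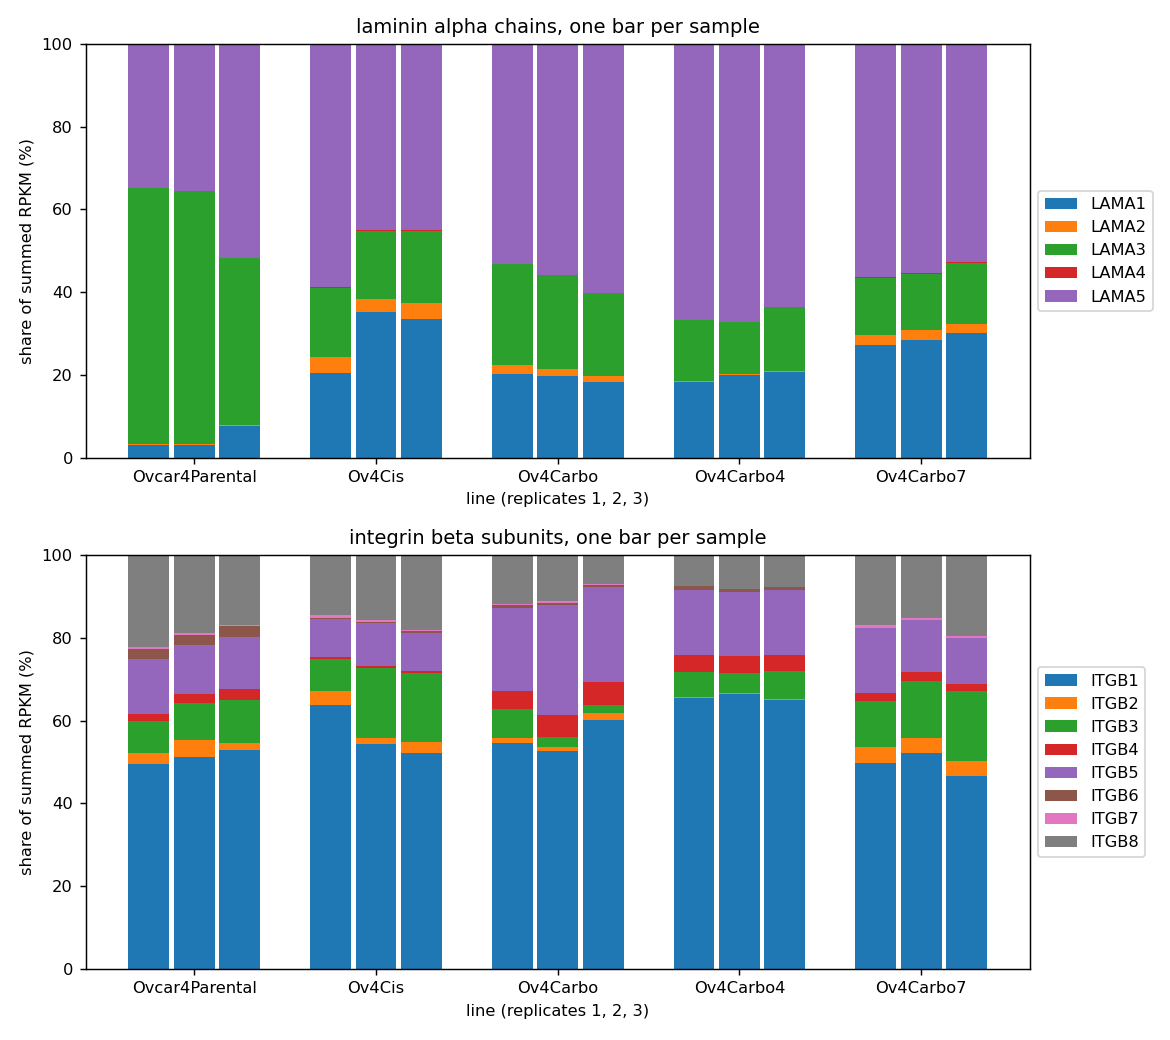
Share of the summed RPKM of the laminin alpha chains (top) and of the integrin beta subunits (bottom), with 1 stacked bar for each of the 3 replicates of a line. LAMA3 is the largest alpha-chain segment in parental replicates 1 and 2 and LAMA5 in every derived sample, while ITGB1 is the largest beta segment in all 15 samples.

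LAMB1 supplied between 72.3% and 89.2% of beta-chain RPKM. The beta-chain share of LAMB3 went from 4.17% in the parental line to 0.16%, 2.35%, 0.54% and 0.66% in the derived lines.

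ITGB6, the epithelial beta subunit that pairs with ITGAV and is known to activate latent TGF-beta, fell in all 4 derived lines. ITGB6 (chromosome 2) was at 2.96, 2.91 and 2.98 log2 RPKM in the parental samples, at -0.37, -0.84 and -0.09 in Ov4Cis, at 0.75, -0.62 and -0.43 in Ov4Carbo, at 1.17, 1.10 and 0.75 in Ov4Carbo4 and at -1.65, -1.31 and -2.35 in Ov4Carbo7. The parental samples lay within 0.1 of each other and above every derived sample, with Ov4Carbo4 the nearest and Ov4Carbo7 the farthest. The log2 changes of ITGB6 were -3.38, -3.05, -1.95 and -4.72 in Ov4Cis, Ov4Carbo, Ov4Carbo4 and Ov4Carbo7 (SE 0.34 each; limma adjusted p = 7.45e-06, 3.72e-05, 6.78e-04 and 6.71e-07). On log2(RPKM + 1) the changes were -2.32, -2.14, -1.53 and -2.74, and with a title-series term the Ov4Carbo4 value was -3.22. A second annotated gene, AC092153.1, shares 20.6% of ITGB6 exons on the same strand, and its part in the result was not tested.

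ITGB6 also separated the 2 clones. It was 6.84-fold lower in Ov4Carbo7 than in Ov4Carbo4 (log2 -2.77, SE 0.34, limma adjusted p = 2.88e-05), with no overlap between their samples. Against their source population, the Ov4Carbo7 difference was -1.67 (adjusted p = 0.00238; -2.52 with the title-series term and -0.60 on log2(RPKM + 1), below the fold limit). In Ov4Carbo4 it was 1.10 (adjusted p = 0.0207) with overlapping samples. That call was lost without Ov4Carbo replicate 2 (0.84) or 3 (0.94), without Ov4Carbo4 replicate 1 (1.02, adjusted p = 0.0652) or 2 (1.06, 0.0583), and with the title-series term (0.25).

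The other partners of ITGAV followed other patterns. ITGAV itself, the alpha subunit shared by several RGD-binding integrins, was not called in any contrast of all 15 samples, with line means of 5.38 to 6.26. Its Ov4Carbo difference from the parental line was -0.89, and without Ov4Carbo replicate 1 it was called at -1.11 (limma adjusted p = 7.42e-04). ITGB5, a vitronectin-binding partner, was not called either, and among the 8 contrasts its largest difference was -0.94 in Ov4Cis against the parental line (adjusted p = 8.49e-05), just inside the fold limit. Its line means spanned 1.03, from Ov4Cis to Ov4Carbo4, a pair not among those contrasts. ITGB8, the second activator of latent TGF-beta, fell in Ov4Carbo by 1.89 (5.89 ± 0.23 to 4.01 ± 0.54, SE 0.26, adjusted p = 1.57e-04) and in Ov4Carbo4, with a change of -1.55 (to 4.35 ± 0.04, adjusted p = 4.52e-04). With a title-series term the Ov4Carbo4 value was -2.46. In Ov4Cis and Ov4Carbo7 the ITGB8 differences were -0.79 and -0.61, not called. As a share of beta-subunit RPKM, ITGB8 was at 19.3% in the parental line and at 16.1%, 9.89%, 7.73% and 17.2% in the derived lines.

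ITGB3, the vitronectin receptor subunit that also pairs with ITGA2B in platelets, was low in Ov4Carbo. ITGB3 (chromosome 17) was at 4.66, 4.82 and 4.98 log2 RPKM in the parental samples, at 3.86, 5.22 and 5.30 in Ov4Cis, at 3.86, 1.62 and 1.81 in Ov4Carbo, at 3.97, 3.55 and 4.23 in Ov4Carbo4 and at 4.44, 5.02 and 5.45 in Ov4Carbo7. Replicate 1 of Ov4Carbo stood 2 log2 units above replicates 2 and 3, in the range of Ov4Carbo4. ITGB3 fell by 2.39 in Ov4Carbo (SE 0.53, limma adjusted p = 0.00474), and by 3.11 without Ov4Carbo replicate 1 (a change of -3.11, adjusted p = 1.59e-04). It was 2.54 higher in Ov4Carbo7 than in Ov4Carbo (adjusted p = 0.00296), but 1.11 with the title-series term (0.158). The Ov4Carbo4 difference from Ov4Carbo, 1.49 (adjusted p = 0.0406), was 0.05 with that term and lost its call in 8 of the fits that left out 1 sample, the smallest being 1.08 without Ov4Carbo replicate 2. It was also lost with the replicate block (adjusted p = 0.0612) and with only the 2 lines (0.113). Another gene annotated in GENCODE v29 on the same strand, AC068234.1, covers 51.6% of ITGB3 exons. How reads in the overlap were counted is not given in the sources used here, and its part in the result was not tested.

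ITGA6 and ITGB4, which together form the hemidesmosomal laminin receptor, did not move together in Ov4Cis. ITGB4 (chromosome 17) was at 2.36, 2.64 and 2.95 log2 RPKM in the parental samples, at -0.04, 0.43 and -0.08 in Ov4Cis, at 3.18, 2.72 and 3.27 in Ov4Carbo, at 3.48, 3.38 and 3.37 in Ov4Carbo4 and at 1.84, 2.27 and 2.08 in Ov4Carbo7. The 3 Ov4Cis samples were below every other sample. ITGB4 fell by 2.54 in Ov4Cis (SE 0.19, limma adjusted p = 6.62e-07), a 5.83-fold difference within 1 title series, and Ov4Cis was 7.73-fold lower than Ov4Carbo (log2 -2.95, adjusted p = 2.96e-07). In the other derived lines the ITGB4 differences from the parental line were 0.41, 0.76 and -0.58, none called. Ov4Carbo7 was 1.35 log2 units below Ov4Carbo4, a value of -1.35 (adjusted p = 1.01e-04).

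ITGA6, which can also pair with ITGB1, rose in Ov4Cis by 1.06 (2.69 ± 0.29 to 3.75 ± 0.29, SE 0.19, limma adjusted p = 7.40e-04) and in Ov4Carbo4 by 1.5 (to 4.19 ± 0.04, 5.95e-05). The Ov4Cis value was 0.92 without parental replicate 1, 0.96 without Ov4Cis replicate 1 and 0.96 on log2(RPKM + 1), below the fold limit. The ITGB4 level minus the ITGA6 level was -0.04 in the parental line and -3.65, -0.49, -0.78 and -1.17 for Ov4Cis, Ov4Carbo, Ov4Carbo4 and Ov4Carbo7 (SD 0.0048, 0.31, 0.16, 0.087 and 0.086, n = 3 each). The 2 subunits were thus level in the parental samples, and the gap was widest in Ov4Cis.

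**Figure D5:**
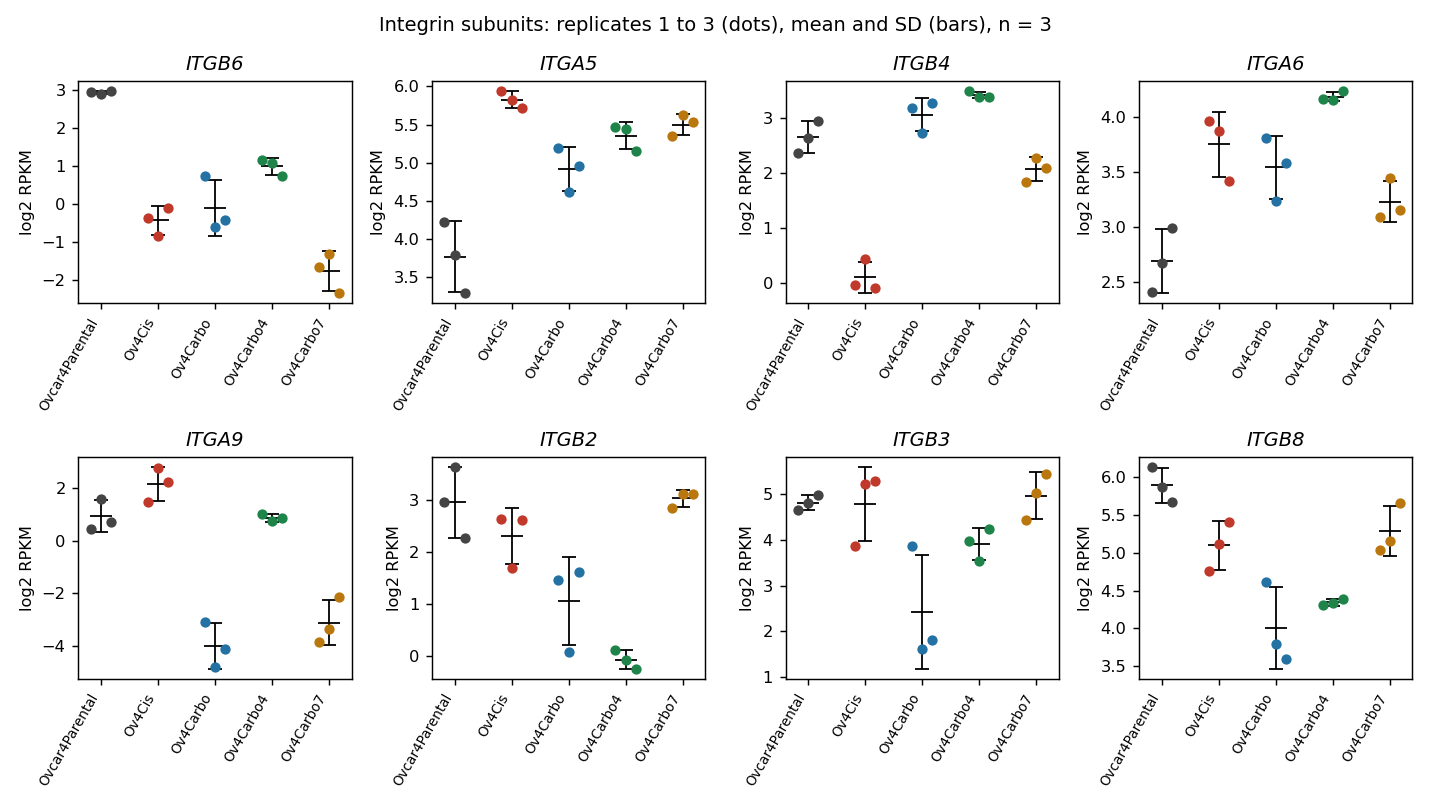
Log2 RPKM of 8 integrin subunits by line, with 1 dot per replicate and the mean and SD as bars (n = 3). ITGB6 is lower and ITGA5 higher in every derived sample than in every parental one, ITGB4 is low in Ov4Cis, ITGA9 in Ov4Carbo and Ov4Carbo7, ITGB2 in Ov4Carbo4 and ITGB3 in Ov4Carbo replicates 2 and 3.

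ITGA5, the alpha subunit of the classical fibronectin receptor, rose in all 4 derived lines. ITGA5 (chromosome 12) was at 4.22, 3.78 and 3.29 log2 RPKM in the parental samples, at 5.94, 5.82 and 5.72 in Ov4Cis, at 5.19, 4.61 and 4.96 in Ov4Carbo, at 5.46, 5.44 and 5.15 in Ov4Carbo4 and at 5.35, 5.62 and 5.53 in Ov4Carbo7. Every derived sample was above every parental sample. ITGA5 rose by 2.06, 1.16, 1.59 and 1.74 (SE 0.21 each; limma adjusted p = 7.99e-06, 0.00126, 8.35e-05 and 3.35e-05 for Ov4Cis, Ov4Carbo, Ov4Carbo4 and Ov4Carbo7). Without parental replicate 3, the Ov4Carbo value was 0.92, below the fold limit. Its share of alpha-subunit RPKM was 7.02% in the parental line and 27.6%, 17.2%, 21.7% and 16.4% in the derived lines.

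ITGB1, the beta subunit with the most partners, was not called in any contrast of all 15 samples, with line means of 6.54 to 7.43, and made up between 49.6% and 65.6% of beta-subunit RPKM. A pseudogene copy, ITGB1P1, was listed at means of 7.64, 7.23, 6.82, 7.66 and 7.04 in Ovcar4Parental, Ov4Cis, Ov4Carbo, Ov4Carbo4 and Ov4Carbo7. ITGB1 was at 7.31, 6.92, 6.54, 7.43 and 6.81 in the same lines, so both ranked the lines alike. Reads can be split between such copies, so the ITGB1 level is uncertain. Without Ov4Carbo replicate 1, ITGB1 was called 1.04 higher in Ov4Carbo4 than in Ov4Carbo (limma adjusted p = 6.09e-04), against 0.89 with it. ITGA3, a laminin-binding partner of ITGB1, had the largest mean share of alpha-subunit RPKM in every line, although in Ov4Carbo4 ITGAV was close to it (31.6% against 31.0%). It was called once, 1.34 higher in Ov4Carbo7 than in Ov4Carbo4 (7.23 ± 0.06 against 5.90 ± 0.20, SE 0.15, limma adjusted p = 1.87e-05). ITGA1, a collagen-binding partner, was called once too, 1.19 higher in Ov4Cis than in Ov4Carbo (SE 0.31, adjusted p = 0.011). That ITGA1 call was lost without Ov4Carbo replicate 3 (0.97), without Ov4Cis replicate 2 (1.02, adjusted p = 0.0502), on log2(RPKM + 1) (0.90) and when only these 2 lines were fitted (adjusted p = 0.0658). Against the parental line ITGA1 was at -0.90 in Ov4Carbo, and without Ov4Carbo replicate 1 it was called at -1.20 (adjusted p = 0.00856).

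ITGA9, a partner of ITGB1 that binds tenascin-C and osteopontin, had the widest range of line means of all members, 6.14 log2 units. ITGA9 (chromosome 3) was at 0.44, 1.59 and 0.71 log2 RPKM in the parental samples, at 1.47, 2.75 and 2.23 in Ov4Cis, at -3.07, -4.80 and -4.10 in Ov4Carbo, at 1.01, 0.73 and 0.84 in Ov4Carbo4 and at -3.83, -3.33 and -2.15 in Ov4Carbo7. The 6 samples of Ov4Carbo and Ov4Carbo7 were below -2 and the 9 others above 0. ITGA9 fell by 4.90 in Ov4Carbo (SE 0.50, limma adjusted p = 1.96e-05) and by 4.02 in Ov4Carbo7 (4.54e-05), and on log2(RPKM + 1) the changes were -1.45 and -1.37. The differences in Ov4Cis and Ov4Carbo4 were 1.24 (adjusted p = 0.0732) and -0.05, not called. Ov4Carbo4 was thus 4.85 above its source population (adjusted p = 1.97e-05; 1.40 on log2(RPKM + 1)), and Ov4Carbo7 was 3.97 below Ov4Carbo4, a value of -3.97 (3.77e-05). The antisense gene ITGA9-AS1 overlaps 6.46% of its exons and had line means between -1.18 and -0.07.

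Subunits known best from leukocytes were also detected. ITGB2, the beta subunit of leukocyte integrins, was at 2.96, 3.65 and 2.28 log2 RPKM in the parental samples, at 2.64, 1.69 and 2.61 in Ov4Cis, at 1.47, 0.08 and 1.62 in Ov4Carbo, at 0.11, -0.08 and -0.25 in Ov4Carbo4 and at 2.85, 3.12 and 3.13 in Ov4Carbo7. The Ov4Carbo4 samples were low and close together, the Ov4Carbo7 samples were high, and the Ov4Carbo samples lay between them except for replicate 2, at the level of Ov4Carbo4. ITGB2 (chromosome 21) fell by 3.04 in Ov4Carbo4 (SE 0.41, limma adjusted p = 1.06e-04) and by 1.91 in Ov4Carbo (0.00391; 0.0561 when only these 2 lines were fitted). It was 8.62-fold higher in Ov4Carbo7 than in Ov4Carbo4 (log2 3.11, adjusted p = 5.50e-05). The antisense gene ITGB2-AS1, which overlaps 4.46% of its exons, was at means of 1.5, 2.24, 1.11, -0.12 and 2.07 in Ovcar4Parental, Ov4Cis, Ov4Carbo, Ov4Carbo4 and Ov4Carbo7, lowest in the same line.

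Of 12 leukocyte markers, 4 were analysed, and LCP1 and CORO1A reached log2 RPKM 1 in a line. Their summed RPKM lay between 107 and 125 in the parental samples, between 4.68 and 5.46 in Ov4Cis, between 50.9 and 89.6 in Ov4Carbo, between 40.2 and 45.6 in Ov4Carbo4 and between 84.2 and 101 in Ov4Carbo7. LCP1 itself, an actin bundler also known from carcinoma cells, was at 6.86, 1.41, 6.12, 5.28 and 6.50 log2 RPKM in Ovcar4Parental, Ov4Cis, Ov4Carbo, Ov4Carbo4 and Ov4Carbo7. CD14 was below log2 RPKM 1 in every line mean, and PTPRC, CD3E and 6 other markers were not analysed here. The sum was lowest in Ov4Cis, where ITGB2 was at 2.32 ± 0.54, and its part in the ITGB2 result was not tested. The remaining ITGB2 calls, Ov4Carbo7 against Ov4Carbo (1.98, limma adjusted p = 0.00282; 0.0861 with the title-series term), Ov4Cis against Ov4Carbo (1.26, 0.0327) and Ov4Carbo4 against Ov4Carbo (-1.13, 0.0442), share the widely spread Ov4Carbo samples. Without Ov4Carbo replicate 2, the Ov4Cis value was 0.77, and without Ov4Carbo replicate 3 the Ov4Carbo4 value was -0.84, neither called. The Ov4Carbo4 call was lost in 10 of the fits that left out 1 sample, some of them samples of other lines. It was also lost on log2(RPKM + 1) (-0.69), with only the 2 lines (adjusted p = 0.0885), with the replicate block (0.0620) and with the title-series term (0.0703).

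The members below log2 RPKM 1 in every line mean numbered 9: ITGA2, ITGA4, ITGA7, ITGA10, ITGA2B, ITGAX, ITGB7, LAMA4 and LAMB4. Their line means ranged from -5.30 (ITGAX in the parental line) to 0.68 (ITGA7 in Ov4Carbo4). They had 36 of the 107 calls of members in the 8 contrasts, and 35 of these 36 calls were lost on log2(RPKM + 1). The exception was ITGB7, the beta subunit of gut-homing lymphocyte integrins, in Ov4Carbo4 against the parental line (-3.79, limma adjusted p = 2.60e-06; -1.09 on log2(RPKM + 1)). ZNF740 on the opposite strand covers 42.1% of ITGB7 exons, and its part was not tested. ITGAX, a partner of ITGB2 in myeloid cells, was called higher in all 4 derived lines with differences of 2.32 to 3.93, but only of 0.15 to 0.44 on log2(RPKM + 1). ITGA2B, the platelet subunit, was below -1.5 in every line mean.

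The gene order placed some members side by side, and whether neighbours changed alike was not tested. LAMB1 and LAMB4 are neighbours on chromosome 7 with 0 protein-coding genes between them. LAMB1 differed from the parental line by 0.53 in Ov4Cis and 0.42 in Ov4Carbo7, not called, and the low-level LAMB4 by 2.56 and 2.62 in the same lines (0.46 and 0.47 on log2(RPKM + 1)). ITGA1 and ITGA2, on chromosome 5, have 1 protein-coding gene between them, and with all 15 samples neither was called against the parental line except ITGA2 in Ov4Carbo4 (1.05, limma adjusted p = 0.0217; 0.09 with the title-series term).

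The 2 single-cell lines differed from each other in 15 members (20.9% of all genes were called), 8 higher and 7 lower in Ov4Carbo7 (11.1% and 9.86% of all genes), and this contrast lies within 1 title series. The values did not overlap for 27 members, beside 67.3% of all genes. Ov4Carbo7 was higher in LAMA2, LAMB2, ITGA3 and ITGB2 and lower in ITGA9, ITGB4 and ITGB6, among others. LAMA3, with a difference of -0.18 (adjusted p = 0.508), LAMA1 (0.38), LAMC3 (0.17) and ITGA5 (0.15) were not called between the clones. With members filtered at a mean of log2 RPKM 1, 6 were called, beside 13.7% of genes.

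Against their source population, 10 members were called in Ov4Carbo4 (14.2% of all genes), 5 in each direction (7.58% higher and 6.64% lower), and 8 in Ov4Carbo7 (13.3%), 6 higher and 2 lower (7.72% and 5.62%). The samples did not overlap for 14 and 18 members, beside 49.6% and 42.3% of all genes. At a mean of log2 RPKM 1 or more, 3 members were called in each, beside 8.27% and 7.07% of genes. In Ov4Carbo4, LAMA2 had the largest fall among members at log2 RPKM 1 or more in a line (-3.26, SE 0.15, limma adjusted p = 3.76e-08) and ITGA9 the largest rise. LAMB3 was lower than in Ov4Carbo in both clones, with log2 differences of -1.98 in Ov4Carbo4 (adjusted p = 7.46e-04) and -1.31 in Ov4Carbo7 (0.0105; -0.98 without Ov4Carbo7 replicate 1). The Ov4Carbo7 call of LAMB3 was also lost on log2(RPKM + 1) (-0.91) and when only these 2 lines were fitted (limma adjusted p = 0.0508). ITGB8 was 1.28 higher in Ov4Carbo7 than in Ov4Carbo (adjusted p = 0.00216), but 0.66 with the title-series term (0.117). The Ov4Carbo4 count fell to 5 without Ov4Carbo replicate 3. Without Ov4Carbo replicate 1, the counts were 9 and 11, beside 16.2% and 16.7% of all genes.

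The cisplatin and carboplatin populations differed in 14 members (13.8% of all genes), 9 higher and 5 lower in Ov4Cis (7.88% and 5.9%). The samples did not overlap for 20 members, beside 41.0% of all genes, and at a mean of log2 RPKM 1 or more 7 members were called, beside 6.98% of genes. Among those lower in Ov4Cis were LAMA3 (-1.15, SE 0.21, limma adjusted p = 0.00134), LAMB3 (-3.25, 1.82e-05), ITGB4 (-2.95) and the low-level ITGAX (-1.61). Among those higher were ITGA9 (6.14, SE 0.50, adjusted p = 2.03e-06), ITGB3 (2.37, 0.00486; 0.0621 when only these 2 lines were fitted), ITGB2 and ITGB8 (1.09, 0.00599). The ITGB8 value was 0.89 without Ov4Carbo replicate 3 and 0.94 without Ov4Cis replicate 3. With Ov4Carbo replicate 1 left out, 16 members were called, beside 16.7% of all genes. LAMA5 (-1.05, adjusted p = 5.52e-04) and ITGA5 (1.04, 0.00353) were among them, against -0.94 and 0.91 with it. Other contrasts also gained calls in that fit, ITGA9 in Ov4Cis against the parental line (1.24, 0.0448) and in Ov4Carbo7 against Ov4Carbo (1.34, 0.0467), and ITGB3 in Ov4Carbo7 against Ov4Carbo4 (1.05, 0.0263).

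Genes that act with integrins were counted in 4 lists against the parental line, where 8.46%, 5.76%, 7.43% and 9.26% of all genes were called higher and 7.41%, 6.93%, 7.7% and 7.75% lower in Ov4Cis, Ov4Carbo, Ov4Carbo4 and Ov4Carbo7. Of 38 genes of focal adhesions and integrin activation, 1, 1, 0 and 0 rose and 6, 11, 6 and 9 fell in Ov4Cis, Ov4Carbo, Ov4Carbo4 and Ov4Carbo7, with list medians of -0.12, -0.59, -0.48 and -0.38 against 0.04, 0.03, 0.07 and 0.02 over all genes. TNS4, TNS1 and PTK2B fell in every derived line: TNS4, a tensin of epithelial adhesions, changed by -7.74, -4.21, -3.72 and -2.30, TNS1 by -1.77, -3.20, -1.64 and -2.31, and PTK2B, a kinase related to focal adhesion kinase, by -2.49, -1.92, -1.38 and -1.74. The single rise in Ov4Carbo was APBB1IP, a binding partner of RAP1 in talin recruitment (4.92, SE 0.93, limma adjusted p = 0.00167). With the title-series term, TNS4 in Ov4Carbo7 was -1.93 (adjusted p = 0.0847), and TNS1 was -2.95 in Ov4Carbo4 and -3.62 in Ov4Carbo7. PTK2B in Ov4Carbo4 was -2.18 with that term and -0.87 on log2(RPKM + 1).

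Of 6 hemidesmosome genes, 4 were analysed, and 0 rose and 1 fell in each derived line. This was KRT5, a basal keratin, at -0.79 ± 0.27 log2 RPKM in the parental line, which fell, with changes of -5.20, -6.17, -2.59 and -5.20. The KRT5 differences on log2(RPKM + 1) were -0.64, -0.65, -0.52 and -0.64, below the fold limit. With the title-series term the Ov4Carbo4 value of KRT5 was -1.77 (limma adjusted p = 0.115).

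Of 27 analysed genes of the basement membrane and laminin receptors, 3, 1, 3 and 3 rose and 10, 9, 8 and 3 fell, with list medians of -0.37, -0.73, -0.54 and -0.33. LAD1, an anchoring filament protein of epithelial basement membranes, fell from 5.17 ± 0.21, with changes of -5.34, -1.67, -1.22 and -2.21 in Ov4Cis, Ov4Carbo, Ov4Carbo4 and Ov4Carbo7 (SE 0.14; limma adjusted p between 8.85e-11 and 2.85e-05). SPARC, a collagen-binding matricellular protein, rose from 1.31 ± 0.73 by 5.73, 4.49, 5.61 and 3.74. FRAS1, which links epithelium to mesenchyme, fell in Ov4Cis by 7.70 and was not called in the other lines. NID2, a nidogen that bridges laminin to collagen IV, fell in Ov4Cis, Ov4Carbo and Ov4Carbo4 (-6.54, -5.22 and -5.98) and differed by -0.12 in Ov4Carbo7. The Ov4Carbo samples of NID2 were widely spread, at -0.75 ± 2.13, against 4.48 ± 0.86 in the parental line. In Ov4Carbo4 NID2 was at -1.51 ± 0.52. Its Ov4Carbo4 difference was -9.39 with the title-series term, a value that rests on Ov4Carbo replicate 1.

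Of 25 analysed genes among the other integrin ligands and latent TGF-beta partners, 6, 2, 5 and 5 rose and 8, 12, 10 and 8 fell, with list medians of -0.34, -0.84, -0.88 and -0.35. NPNT, the nephronectin ligand of ITGA8, and ICAM2, a ligand of ITGB2 integrins, rose in every derived line, by 2.87, 2.89, 1.44 and 1.19 and by 1.51, 3.24, 2.91 and 3.81. NPNT on log2(RPKM + 1) was at 0.40 in Ov4Carbo4 and 0.31 in Ov4Carbo7, and ICAM2 at 0.27, 0.94 and 0.77 in Ov4Cis, Ov4Carbo and Ov4Carbo4, below the fold limit. The Ov4Carbo7 value of NPNT was 0.85 without parental replicate 1, and its adjusted p with the title-series term was 0.0811 in Ov4Carbo4 and 0.147 in Ov4Carbo7. CDH1, which ITGAE binds, fell in each (-8.14, -1.75, -1.01 and -2.82), and the Ov4Carbo4 value was -0.87 without parental replicate 1 and -0.21 with the title-series term. COL1A2, a collagen I chain, fell likewise (-4.24, -5.18, -5.80 and -4.95). COL1A1, on the same list, was at 2.264, 2.693, 3.63 and 2.828 log2 RPKM in these lines, against 2.415 in the parental line. CCN2, a matricellular ligand, fell too (-1.32, -2.42, -3.30 and -2.59), and its Ov4Cis call was lost in 10 alternatives, the value being -0.75 without Ov4Cis replicate 1.

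TGFB2, one of the TGF-beta isoforms, had changes of -1.81, -4.32, -2.32 and -1.19 in Ov4Cis, Ov4Carbo, Ov4Carbo4 and Ov4Carbo7. The Ov4Carbo7 value of TGFB2 was -0.98 without parental replicate 2 and -0.94 (limma adjusted p = 0.244) with the title-series term. LRRC32, which tethers latent TGF-beta to the cell surface, fell from -1.08 ± 0.28, with changes of -1.92, -4.64, -3.70 and -2.18, and on log2(RPKM + 1) the differences were -0.39, -0.53, -0.51 and -0.41, below the fold limit. FN1, the fibronectin bound by ITGA5 integrins, fell in Ov4Carbo (-3.03) and Ov4Carbo4 (-6.92) and differed by 0.23 in Ov4Cis and -0.06 in Ov4Carbo7. FN1 was not called higher in any derived line, while ITGA5 was called higher in each.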

How the data were processed

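Polyadenylated RNA of 15 samples was sequenced and, per the submitters' processing notes, handled with BWA 0.7.15-r1140 and HTSeq on hg19 (GRCh37). The authors deposited 1 table of log2 RPKM values normalized by conditional quantile normalization (cqn). No counts were used here, so the depth per sample is unknown and no counting interval is given. Every sample had a median of 2.77, and no value was missing.

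The members and the gene lists were chosen with earlier results of these data known. Values were fitted with limma 3.58.1 (R 4.3.3) over all 15 samples and 16604 genes, with 1 coefficient per line, and p-values were adjusted by Benjamini and Hochberg within each of 8 contrasts. A call needed an adjusted p under 0.05 and a log2 fold change of at least 1. Members called in any contrast and at log2 RPKM 1 or more in a line are named with their values, and those with a log2 fold change of at least 2 in either direction are given in every sample. The others are given by range and count, and 1 member and 1 marker enter the counts but are not reported here. Of the list genes, those called in 1 direction in all 4 derived lines and the 2 with the largest change per list at log2 RPKM 1 or more are named. On simulated data with a log2 change of 2 (Ov4Cis against the parental line, 16604 genes), 184 of 200 changed genes were recovered with 2 false calls. The simulated noise was independent between samples, with no title series and no outlying replicate, so these numbers give no error rate for the calls reported here.

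Alternatives were a filter at a mean of log2 RPKM 1, log2(RPKM + 1), centring on the sample median, a variance trend, only the 2 lines compared, a term for the title series, the replicate number as a block, and leaving out each sample. Genes were placed with GENCODE v29, and promoter windows are from RefSeq (GRCh38.p14). The tables used pandas 2.3.3 under Python 3.11.15, and plots used matplotlib 3.10.9.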

Additional observations from a re-analysis of the deposited data

Results flagged for a closer look

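LAMA4, an alpha chain of vessel and muscle basement membranes, differed from the parental line in opposite directions in different derived lines, and these lines were also compared directly. It stood at -2.70, -3.87 and -3.19 log2 RPKM in the parental samples, at -0.89, -1.32 and -1.31 in Ov4Cis, at -3.62, -5.34 and -4.22 in Ov4Carbo, at -3.99, -4.47 and -4.63 in Ov4Carbo4 and at -1.24, -1.03 and -0.51 in Ov4Carbo7. Against the parental line it was 2.08 in Ov4Cis and 2.32 in Ov4Carbo7, but -1.14 in Ov4Carbo (limma adjusted p = 0.0422, with overlapping samples) and -1.11 in Ov4Carbo4 (0.0418). The parental line cancels from the difference between such effects, so each is the direct contrast of the derived lines. The contrast was 3.47 for Ov4Carbo7 and Ov4Carbo (SE 0.40, limma adjusted p = 5.80e-05), 3.43 for Ov4Carbo7 and Ov4Carbo4 (1.87e-05) and 3.22 for Ov4Cis and Ov4Carbo (6.23e-05). These pairs were picked for their opposite signs. Their contrasts do not show whether Ov4Carbo or Ov4Carbo4 lay below the parental line. LAMA4 was under log2 RPKM 1 in every line, and on log2(RPKM + 1) these 3 differences were 0.54, 0.55 and 0.46. The calls in Ov4Carbo and Ov4Carbo4 against the parental line were lost in 9 and 7 of the fits that left out 1 sample, and with a title-series term the Ov4Carbo7 value was 1.16 (adjusted p = 0.185).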

How the results depend on the processing

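With genes filtered at a mean of log2 RPKM 1, the counts of called members were 9, 9, 9 and 6 in Ov4Cis, Ov4Carbo, Ov4Carbo4 and Ov4Carbo7 against the parental line, 3 and 3 in Ov4Carbo4 and Ov4Carbo7 against Ov4Carbo, 6 between the clones and 7 between Ov4Cis and Ov4Carbo, and 20 members passed the F-test; fewer members were tested. After that filter 8.21%, 6.06%, 8.07%, 9.42%, 8.27%, 7.07%, 13.7% and 6.98% of the genes kept were called, in the same order of contrasts. On log2(RPKM + 1) the count was 8 in Ov4Carbo7 against the parental line, beside 7.79% of all genes. It was 4 and 3 in the clones against Ov4Carbo (5.45% and 4.96%), 7 between the clones (10.5%) and 7 between Ov4Cis and Ov4Carbo (5.77%). With only the 2 lines fitted they were 6 for Ov4Carbo4 against Ov4Carbo and 9 for Ov4Cis against Ov4Carbo, and with the title-series term 5 for Ov4Carbo7 against Ov4Carbo. Leaving out 1 sample gave 14 to 18, 13 to 17, 14 to 17 and 13 to 15 against the parental line, 5 to 9 and 7 to 11 in Ov4Carbo4 and Ov4Carbo7 against Ov4Carbo, 12 to 16 between the clones, 11 to 16 for Ov4Cis against Ov4Carbo, and 30 to 32 in the F-test. ITGA4 in Ov4Carbo7 against the parental line turned from -2.17 to 0.25 (limma adjusted p = 0.828) with the title-series term; the cause was not tested. Centring on the sample median and a variance trend kept these counts within 1.5 times. Shares over all genes are not given here for the F-test counts or for the 2-line, title-series, leave-one-out and replicate-block fits. Those counts show only how far the member counts moved.

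Deviations from the line mean in same-numbered samples of different lines correlated between -0.394 and 0.437, above 0.1 in 11 of 30 cases. The labels do not say that the numbers mark a shared day, and these correlations cannot exclude it. With the replicate block the counts were 15, 15, 16 and 14 against the parental line, 7, 8, 14 and 14 in the other contrasts, and 30 in the F-test.

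Depth is unknown, so low levels carry an error that the files do not give. Of 71 calls among members at log2 RPKM 1 or more in a line, 13 were lost without a single sample and 12 on log2(RPKM + 1). Ov4Carbo4 and Ov4Carbo7 differ from the parental line also in title series, which cannot be told apart from the line except through Ov4Carbo, whose samples lie in both. Only replicate 1 of Ov4Carbo shares the series of the clones, so the title-series values of the clones against Ov4Carbo or the parental line rest on it.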
